A study of Mus musculus with 58 samples.

Results

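Beige adipocytes are fat cells of white depots that switch on heat production in the cold and lose it again in warmth. The response to rewarming was measured here as the difference between 3 warm beige and 4 cold beige libraries, which were chosen by the tissue and treatment in their names, over all 11603 rows of the deposited mRNA table. These 7 libraries are part of 22 mRNA libraries, in a series of 58 samples. All mice were C57BL/6J on standard chow with a light and dark cycle, and those of the beige and brown groups were reared at room temperature before the treatments. Warm beige cells came from inguinal white fat of mice held at 4 °C for 1 week and then at 30 °C for 4 weeks. Cold beige cells came from inguinal white fat of mice at the end of 1 week at 4 °C. Warm brown (n = 5) and cold brown (n = 5) libraries came from interscapular brown fat after the same 2 treatments, and warm white libraries (n = 5) from the inguinal depot of animals that spent their whole life at 30 °C. The animals carried the NuTRAP allele, which puts a GFP tag on ribosomes in cells that express Cre, and the mRNA on these tagged ribosomes was recovered by precipitation of the GFP tag. The labels name an Ucp1 and an Adipoq line without saying which library came from which, so the promoter that marked the cells of a given library is not known. Each library is called a biological replicate and no animal is named, so the p-values measure the spread between these libraries.

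Heat in beige and brown cells comes from burning fuel in mitochondria whose proton gradient is discharged, and the capacity to do so rests on the whole organelle. Mitochondria are built from proteins that are mostly encoded in the nucleus, together with a small set that their own ribosomes make. They also depend on imported iron, coenzyme Q and the lipid cardiolipin. When the stimulus of the sympathetic nerves ends, beige cells keep their lipid droplet and take on the look of white adipocytes. The genes of heat production itself, of the respiratory chain and of the interferon response are left aside here except where another result turns on them.

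The adipocyte label was checked first, on the scale of log2 CPM (the logarithm of a read share scaled to the library total). Plin1, which coats the lipid droplet, was 10.34, 10.47 and 10.24 in warm beige libraries 1 to 3, against 10.42, 10.48, 10.59 and 10.50 in cold beige libraries 1 to 4. Its difference did not pass the test (log2 fold change -0.15 ± 0.09, SE; adjusted p = 0.163, limma). The fatty acid binding protein gene Fabp4 was 11.99, 12.17 and 11.69 in warm beige, against 11.52, 11.65, 11.33 and 11.14 in cold beige, higher by 0.54 ± 0.13 (adjusted p = 0.00113). Adipoq, the adiponectin gene, was 9.51, 9.37 and 9.06 in warm beige, against 8.06, 8.32, 8.86 and 8.99 in cold beige. Pparg, the master regulator of fat cells, was 7.37, 6.80 and 6.87 in warm beige, against 7.32, 7.35, 7.49 and 7.69 in cold beige, and its groups overlapped. It was called lower by 0.45 log2 units (adjusted p = 0.0141) and lost that call without warm beige 2 (adjusted p = 0.0891) or warm beige 3 (0.0652). Ucp1, which lets protons leak back into mitochondria, was 1.53, 0.38 and 1.17 in warm beige, against 11.19, 11.16, 11.30 and 11.71 in cold beige. All 7 libraries thus held high levels of fat cell genes, and Ucp1 separated the groups without overlap.

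Libraries of a group were alike, with Pearson correlations across rows of 0.957 to 0.967 among warm beige and 0.980 to 0.990 among cold beige, and of 0.794 to 0.822 between the groups. Values at the floor of the table divide the libraries into 2 sets, which no label names and which are treated here as possible batches. Batch 1 held warm beige 3 with cold beige 1 and 4, and batch 2 held warm beige 1 and 2 with cold beige 2 and 3. The share of the ribosomal precursor Rn45s in the linear total lay between 4.32% and 5.72% for warm beige, against 0.436% to 1.15% for cold beige. Markers of other cells were summed on the linear scale, with none at the floor in every beige library. The 17 fibroblast markers summed to 8270 to 12300 CPM in warm beige and 1700 to 2140 CPM in cold beige, and the 20 endothelial markers to 856 to 1320 CPM in warm beige and 272 to 607 CPM in cold beige. The 14 smooth muscle markers summed to 943 to 1400 CPM in warm beige and 452 to 711 CPM in cold beige. The 11 macrophage markers summed to 180 to 208 CPM in warm beige and 63.8 to 110 CPM in cold beige, and the 3 lymphocyte markers to 31.4 to 45.6 CPM in warm beige and 35.9 to 51.0 CPM in cold beige. The 13 skeletal muscle markers stood at 350 and 320 CPM in warm beige 1 and 2 and at 73.2 CPM in warm beige 3, against 40.8 to 92.3 CPM in cold beige. In pulled-down RNA of whole tissue, fewer cells of a type and less RNA per cell cannot be told apart.

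**Figure D1:**
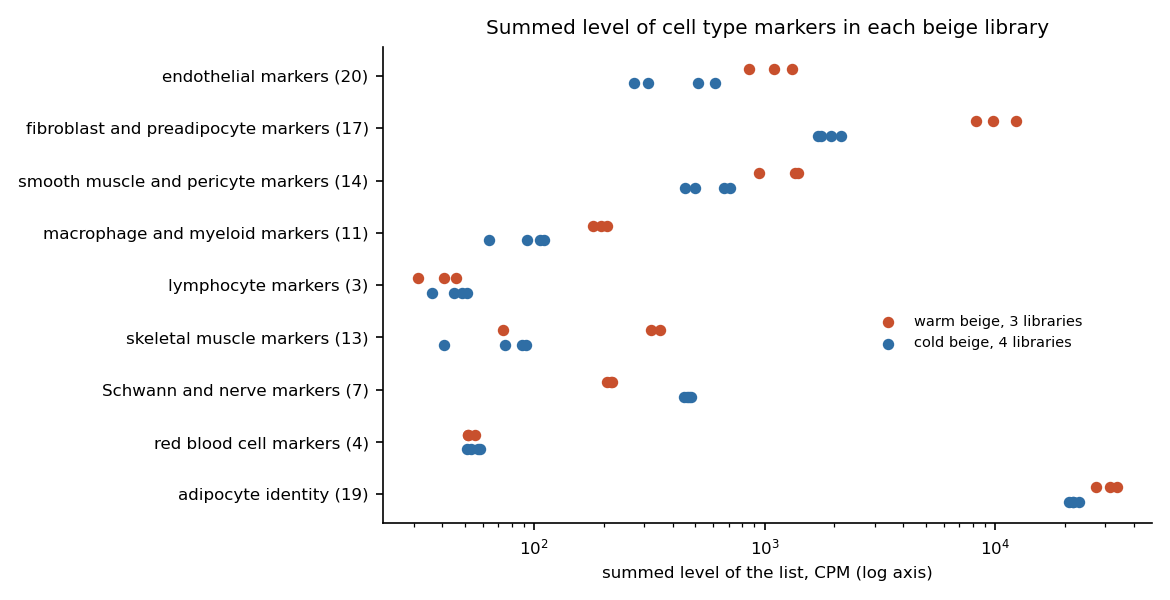
Summed level in CPM (log axis) of the markers of each cell type, with the number of measured markers in parentheses. Each point is 1 library, with 3 warm beige libraries above 4 cold beige libraries in each row. Fibroblast, endothelial, smooth muscle and macrophage markers were higher in all 3 warm libraries, and skeletal muscle markers were high in 2 of the 3.

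Rewarming changed a large part of the table. Limma-trend called 8453 of 11603 rows (72.9%) at an adjusted p of 0.05, of which 4177 (36.0%) rose and 4276 (36.9%) fell. By at least 2-fold, 1882 rows rose (16.2%) and 2006 fell (17.3%), and 33 rows rose and 135 fell by at least 16-fold. The 3 warm and 4 cold libraries did not overlap in 7703 rows (66.4%). The median log2 fold change over all rows was 0.0275, so these shares and this median are the background for each gene list below. When totals left out the 20 genes of highest level, Rn45s among them, the median moved to 0.25 and the share of increases among the calls moved to 60.8%, against 49.4% as deposited. Within batch 2 (2 libraries a group) 7929 rows were called, and within batch 1 (1 warm and 2 cold libraries) 5255 were.

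**Figure D2:**
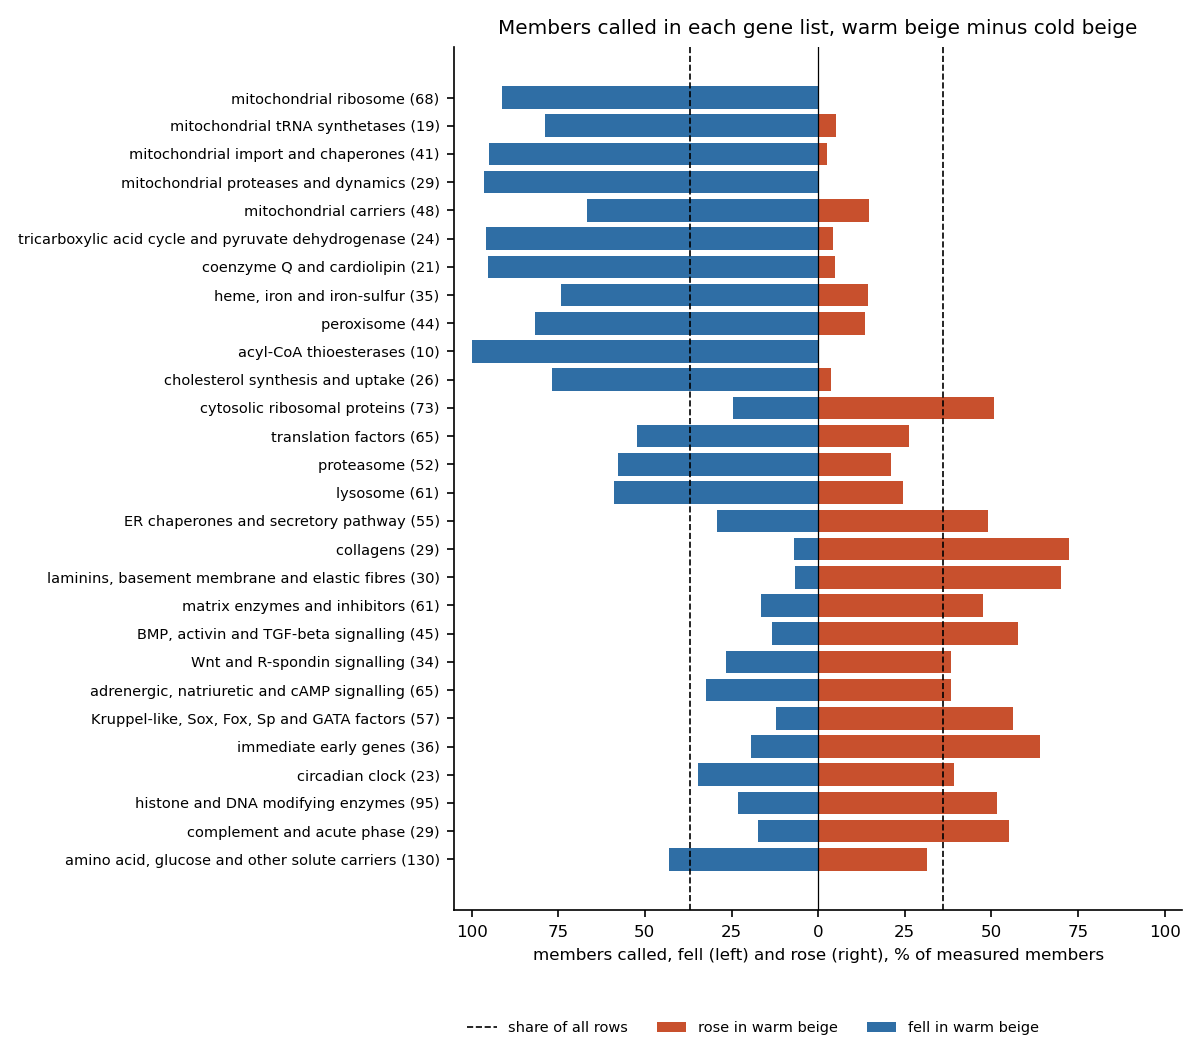
Share of the measured members of 28 gene lists that rose (right) and fell (left) in warm beige against cold beige, in percent, with the number of measured members in parentheses. Dashed lines mark the shares over all 11603 rows, 36.0% for increases and 36.9% for decreases. Mitochondrial lists lie on the left, with 91.2% of the mitochondrial ribosome fallen, and matrix lists lie on the right, with 72.4% of the collagens risen.

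The genes that build the mitochondrion fell together. Of 68 measured proteins of the mitochondrial ribosome 62 fell and 0 rose, with a median log2 fold change of -1.29. The largest decreases there, by the naming rule, were those of Mrps2 (-3.06 ± 0.14), Mrpl34 (-2.86 ± 0.15) and Mrpl42 (-2.75 ± 0.22). Mrps2, a protein of the small subunit, was 4.49, 3.61 and 3.82 in warm beige, against 6.96, 7.01, 6.98 and 7.17 in cold beige. Every warm library lay more than 2 log2 units below every cold one. Of 19 aminoacyl-tRNA synthetases of mitochondria 15 fell and 1 rose, with the cysteine enzyme gene Cars2 at -2.27 ± 0.11, the phenylalanine enzyme gene Fars2 at -1.82 ± 0.12 and the alanine enzyme gene Aars2 at -1.63 ± 0.14. The member that rose was the leucine enzyme gene Lars2, at 11.48, 11.59 and 10.15 in warm beige and 9.72, 9.53, 8.70 and 8.26 in cold beige. Rn45s was 15.39, 15.78 and 15.18 in the same warm libraries and 12.82, 13.59, 12.76 and 12.07 in the cold ones, and its part in the Lars2 value was not tested. Within batch 1 Lars2 was not called (adjusted p = 0.08).

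The promoters of mitochondrial ribosome genes are shown because these members fell together and many such promoters are known to bind NRF1, an activator of nuclear genes for mitochondria. Of the 68 symbols 61 matched a RefSeq promoter (GRCm38.p6, 250 bases before to 50 after the start). The NRF1 motif, the 10 letters in capitals in the sequences shown here, was searched on both strands with 1 position free. It was in 13 of these 61 (21.3%), in 1045 of 8620 measured genes with a promoter (12.1%) and in 5.19% of all 27025 symbols in the table. The members shown hold the motif and are the 3 of these with the largest decreases, Mrpl30 (-2.22, chr1:37890227-37890526, plus strand), Mrpl39 (-1.41, chr16:84735195-84735494, minus strand) and Mrps21 (-1.38, chr3:95871465-95871764, minus strand). Promoters on 1 chromosome were left out of this choice. Capitals mark the matched letters, read 5′ to 3′ along the strand of the gene.
Mrpl30: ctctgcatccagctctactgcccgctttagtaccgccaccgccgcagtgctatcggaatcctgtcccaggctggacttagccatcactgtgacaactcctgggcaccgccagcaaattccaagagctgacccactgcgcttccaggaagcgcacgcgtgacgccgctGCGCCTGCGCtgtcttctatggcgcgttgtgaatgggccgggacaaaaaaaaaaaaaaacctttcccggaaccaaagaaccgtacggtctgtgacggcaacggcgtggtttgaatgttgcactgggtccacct
Mrpl39: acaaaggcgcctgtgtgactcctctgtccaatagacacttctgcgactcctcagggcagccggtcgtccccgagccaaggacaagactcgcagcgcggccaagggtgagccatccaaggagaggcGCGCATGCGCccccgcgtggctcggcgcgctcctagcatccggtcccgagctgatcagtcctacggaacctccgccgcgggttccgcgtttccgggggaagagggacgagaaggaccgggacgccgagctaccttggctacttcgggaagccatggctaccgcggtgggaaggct
Mrps21: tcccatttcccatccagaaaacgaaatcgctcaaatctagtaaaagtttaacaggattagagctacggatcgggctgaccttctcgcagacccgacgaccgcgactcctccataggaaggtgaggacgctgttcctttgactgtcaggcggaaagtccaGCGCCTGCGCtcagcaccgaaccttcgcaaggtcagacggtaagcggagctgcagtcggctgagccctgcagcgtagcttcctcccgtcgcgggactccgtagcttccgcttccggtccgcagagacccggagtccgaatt
A match describes letters in this window and does not show binding. Among other lists that mostly fell, the NRF1 motif was in 23.1% of promoters for mitochondrial proteases and dynamics. It was in 9.52% for the tricarboxylic acid cycle and pyruvate dehydrogenase and in 5.26% for mitochondrial carriers. For histone and DNA modifying enzymes, of which more rose than fell, the share was 18.9%. The part of the motif in the decreases was not tested. The letters TCAAGGTCA, bound by the estrogen-related receptors, were in 0 of the 61 promoters and in 24 of the 8620 of measured genes. With a share as low as 0.278% over measured genes, 61 promoters cannot tell whether these letters are rarer here, so nothing is read from the 0.

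The machinery that reads the mitochondrial genome and brings proteins in fell as well. Of 16 genes for mitochondrial transcription and DNA 13 fell and 1 rose. The transcription factor gene Tfb2m changed by -2.22 ± 0.11, the poly(A) polymerase gene Mtpap by -1.86 ± 0.12 and the RNA polymerase gene Polrmt by -1.61 ± 0.12, while the thymidine kinase gene Tk2 rose by 0.86 ± 0.14. Of 41 genes of import and mitochondrial chaperones 39 fell and 1 rose, with a median of -1.29. Timm8b, which escorts proteins between the membranes, fell by 2.88 ± 0.15, the HSP70 cofactor gene Grpel1 by 2.61 ± 0.12 and its cochaperone gene Dnaja3 by 2.44 ± 0.08. Tomm34, a cytosolic cochaperone of import, rose by 0.68 ± 0.12. Of 29 genes of proteases, cristae and organelle dynamics 28 fell and 0 rose. Among them the prohibitin gene Phb was 4.62, 4.22 and 4.31 in warm beige, against 7.04, 7.06, 7.20 and 7.03 in cold beige. The cristae genes Chchd3 and Apoo changed by -2.17 ± 0.09 and -3.58 ± 0.37.

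Central metabolism inside the organelle showed the lowest median of the mitochondrial lists. Of 24 genes of the tricarboxylic acid cycle and pyruvate dehydrogenase 23 fell and 1 rose, with a median of -1.92. Idh3a, a subunit of isocitrate dehydrogenase, was 7.54, 7.50 and 6.96 in warm beige, against 10.69, 10.79, 10.83 and 10.76 in cold beige. That is a 10.8-fold decrease with no overlap, and Idh3g, another subunit, fell by 2.99 ± 0.16. The 1 member that rose was Pdp1 (1.06 ± 0.16), a phosphatase that switches pyruvate dehydrogenase on. Of 24 genes of branched-chain amino acid breakdown 18 fell and 3 rose. Mcee, an epimerase late in the pathway, fell by 2.75 ± 0.08, and Bcat2, the first enzyme, rose by 0.47 ± 0.10 in the more abundant of its rows.

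Transport across the inner membrane was less uniform. Of 48 mitochondrial carriers of the Slc25 family 32 fell and 7 rose, with a median of -1.08. The orphan carrier gene Slc25a34 was 2.19, 1.52 and 1.94 in warm beige, against 8.61, 8.80, 8.84 and 8.63 in cold beige, a 114-fold decrease. Slc25a48 was at -0.57, 0.10 and -2.46 in warm beige, against 4.53, 4.55, 3.87 and 4.09 in cold beige. Slc25a30 and Slc25a38 rose by 0.85 ± 0.16 and 0.44 ± 0.12. Of 21 genes of coenzyme Q and cardiolipin synthesis 20 fell and 1 rose, with a median of -1.52. Coq6 (-3.02 ± 0.14), Coq9 (-2.74 ± 0.09) and Coq10a (-2.93 ± 0.13) serve the synthesis or use of coenzyme Q, and Cds2, which makes CDP-diacylglycerol in the endoplasmic reticulum, rose by 1.96 ± 0.18.

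Of 35 genes of heme, iron and iron-sulfur clusters 26 fell and 5 rose. Tfrc, the transferrin receptor that takes up iron (uc007yza.2, chromosome 16, 32608896 to 32632794), was 4.94, 4.39 and 4.09 in warm beige, against 10.15, 9.65, 9.55 and 8.77 in cold beige. This was a 33.3-fold decrease (-5.06 ± 0.30, adjusted p = 1.02e-12), with no overlap. The iron-sulfur protein genes Cisd3 and Bola3 changed by -2.81 ± 0.12 and -2.52 ± 0.13. The ferritin light chain gene Ftl1, which stores iron, rose by 1.07 ± 0.10. The metalloreductase gene Steap4 was 10.81, 10.54 and 9.70 in warm beige and 7.21, 6.73, 7.67 and 7.38 in cold beige.

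**Figure D3:**
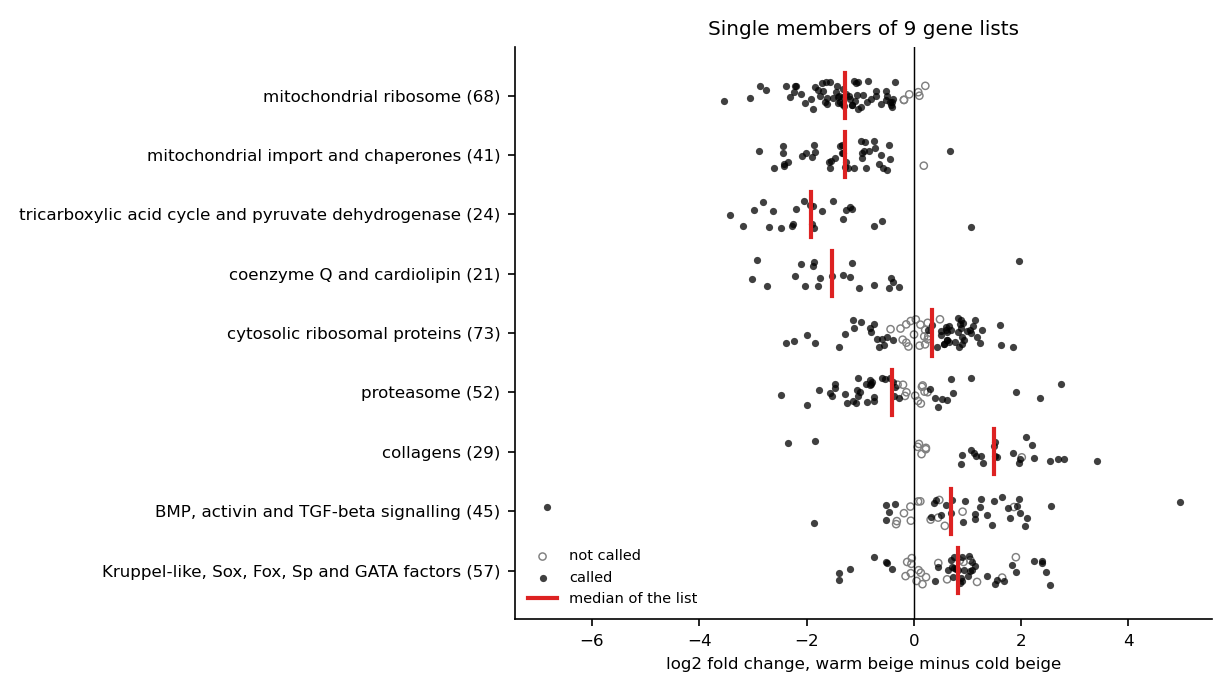
Log2 fold change (warm beige minus cold beige, horizontal axis) of each measured member of 9 gene lists, with the number of members in parentheses. Filled points passed an adjusted p of 0.05, open points did not, and red lines are list medians. The medians of the 4 mitochondrial lists lie between -1.92 and -1.29, that of the collagens at 1.49.

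Peroxisomes and antioxidant enzymes followed in part. Of 44 peroxisomal genes 36 fell and 6 rose, with a median of -1.12. The bifunctional enzyme gene Ehhadh fell by 3.40 ± 0.23 and the carrier gene Slc25a17 by 3.44 ± 0.12, while Far1, which makes fatty alcohols for ether lipids, rose by 1.36 ± 0.13 and the membrane protein gene Pxmp2 by 1.27 ± 0.15. Of 50 genes of glutathione, thioredoxin and other antioxidant systems 28 fell and 17 rose. Prdx3, the peroxiredoxin of mitochondria, fell by 2.55 ± 0.08, and Srxn1, which repairs peroxiredoxins, by 2.48 ± 0.09. Gpx3, a secreted glutathione peroxidase, moved the other way, at 11.76, 11.30 and 10.82 in warm beige and 8.00, 8.13, 8.01 and 8.46 in cold beige.

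Lipid genes outside the pathways of oxidation and synthesis held some of the widest changes. All 10 measured acyl-CoA thioesterases, which cleave fatty acids from coenzyme A, fell. Acot11 (uc008tyw.2, chromosome 4, 106744555 to 106805007), also known as brown fat inducible thioesterase, was 3.38, 2.48 and 0.68 in warm beige, against 10.30, 10.53, 10.45 and 9.81 in cold beige. Its log2 fold change was -8.09 ± 0.52, and with 1 beige library left out it lay between -8.69 and -7.34. The mitochondrial enzyme gene Acot2 fell by 2.91 ± 0.15 and Acot13 by 2.25 ± 0.19. Fabp3, the fatty acid binding protein of heart (chromosome 4, 130308738 to 130315463), was 3.14, 2.37 and 1.46 in warm beige, against 8.51, 8.34, 8.32 and 8.64 in cold beige. It fell 70.0-fold, while Fabp4 above was called higher, a call that was lost within batch 1 (0.36, adjusted p = 0.286).

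Around the lipid droplet the members diverged. Of 15 droplet proteins 9 fell and 4 rose. Plin2, a perilipin of small and growing droplets, was 7.25, 7.18 and 6.93 in warm beige and 9.92, 9.88, 9.78 and 9.66 in cold beige. Plin4, a perilipin of white adipocytes, was 11.10, 10.92 and 10.76 in warm beige and 8.98, 9.30, 9.34 and 9.40 in cold beige. The caveola gene Ptrf rose by 1.90 ± 0.11. Among 16 lipolysis genes 11 fell and 3 rose, with the monoacylglycerol lipase gene Abhd6 at -2.96 ± 0.20 and the lysosomal acid lipase gene Lipa at -2.44 ± 0.16.

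Sterol genes fell on the side of synthesis. Among 26 sterol synthesis and uptake genes 20 fell and 1 rose, with a median of -1.30. The farnesyl diphosphate synthase gene Fdps was 1.92, 3.06 and 2.46 in warm beige, against 5.78, 5.83, 5.83 and 5.33 in cold beige, and Nsdhl (-3.38 ± 0.26) acts further along the pathway. Of 13 genes of efflux and lipoproteins 6 rose and 6 fell. Apoe was 11.41, 11.26 and 10.84 in warm beige and 8.38, 8.26, 8.35 and 8.60 in cold beige, a 6.83-fold increase, and its receptor gene Lrp1 rose by 1.80 ± 0.11. Apoc1, a neighbour of Apoe in the genome, fell by 2.74 ± 0.21.

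Retinoid and cytochrome P450 genes included single large decreases in lists that were otherwise mixed. Of 23 retinoid genes 12 fell and 6 rose. Dhrs9, a short-chain dehydrogenase of retinol, was -5.61, -0.23 and -1.93 in warm beige, against 5.68, 6.50, 6.45 and 6.23 in cold beige. Retsat, the retinol saturase gene, fell by 2.53 ± 0.17, and the retinoic acid receptor gene Rarg rose by 2.58 ± 0.20. Of 19 cytochrome P450 genes 6 fell and 5 rose (31.6% and 26.3%), both below the shares over all rows. Cyp2b10 was 0.42, -0.43 and -0.06 in warm beige and 5.38, 5.59, 5.86 and 6.91 in cold beige, while Cyp2e1 rose by 1.58 ± 0.25.

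Cytosolic protein synthesis did not follow that of mitochondria. Of 73 cytosolic ribosomal proteins 37 rose and 18 fell, with a median of 0.33. Rplp2, a stalk protein, was 8.23, 7.94 and 7.38 in warm beige and 6.19, 6.40, 5.76 and 5.67 in cold beige. Rpl22 rose by 1.60 ± 0.14, and Rpl10a fell by 1.40 ± 0.13. Reads of ribosomal proteins can be shared with their many pseudogenes, so single values of this family are uncertain. Of 65 translation factors 34 fell and 17 rose, and 22 fell with library totals that leave out the 20 most abundant genes. Of 58 genes of ribosome biogenesis 23 rose and 13 fell, and 8 fell with the same scaling. Eef2k, the kinase that slows elongation, was 7.11, 6.36 and 6.61 in warm beige and 4.15, 4.18, 4.40 and 4.19 in cold beige.

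Protein degradation split within the proteasome itself. Of 52 proteasome genes 30 fell and 11 rose, with a median of -0.42. The constitutive subunit genes Psmc4 (-2.47 ± 0.11), Psmb2 (-2.00 ± 0.17) and Psma6 (-1.77 ± 0.15) fell. The 3 catalytic subunits of the immunoproteasome, which interferon induces in place of constitutive ones, rose. Psmb9 was 5.71, 5.66 and 6.10 in warm beige, against 2.89, 2.58, 3.30 and 3.58 in cold beige, Psmb8 rose by 2.35 ± 0.39 and Psmb10 by 1.90 ± 0.11. The number of increases in this list was 17 without warm beige 3 and 18 with library totals that leave out the 20 most abundant genes. Of 48 genes of autophagy and mitophagy 25 fell and 10 rose, and 16 rose with that scaling. Of 61 lysosomal genes 36 fell and 15 rose. The proton pump genes Atp6v0a2 and Atp6v0e changed by -2.21 ± 0.07 and -2.49 ± 0.10, and the membrane protein gene Cd63 rose by 2.04 ± 0.14.

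Folding in the secretory pathway was the other side. Of 55 genes of endoplasmic reticulum chaperones and secretion 27 rose and 16 fell. The disulfide isomerase genes Pdia4 (2.21 ± 0.14), P4hb (1.50 ± 0.09) and Pdia6 (1.44 ± 0.10) rose, and Sar1b, a GTPase of vesicle budding, fell by 2.69 ± 0.18. Fkbp5, a cochaperone of steroid receptors that glucocorticoids induce, was 6.89, 6.50 and 7.61 in warm beige, against 3.67, 4.46, 3.49 and 3.96 in cold beige. It was listed with the heat shock proteins, of which 18 fell and 9 rose among 33. In the amino acid response, where 19 of 42 fell and 13 rose, the serine synthesis gene Phgdh rose by 2.39 ± 0.38 and the glutamine carrier gene Slc38a2 fell by 1.68 ± 0.13.

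Genes of the extracellular matrix rose. Of 29 collagens 21 rose and 2 fell, with a median of 1.49. Col1a1 was 9.29, 10.46 and 10.15 in warm beige, against 7.08, 7.76, 6.89 and 6.94 in cold beige, and Col1a2 rose by 2.68 ± 0.29 with it. The members that fell were Col12a1 (-2.35 ± 0.32) and Col10a1 (-1.84 ± 0.38), and within batch 1 Col10a1 was not called (adjusted p = 0.279). Fibroblast markers, some of them collagens, summed to 8270 to 12300 CPM in warm beige and 1700 to 2140 CPM in cold beige, and their part in these values was not tested. Of 30 laminins, basement membrane and elastic fibre genes 21 rose and 2 fell. Elastin, Eln, was 7.14, 7.90 and 6.93 in warm beige and 4.31, 3.90, 3.70 and 4.29 in cold beige, and the nephronectin gene Npnt, an integrin ligand, fell by 4.11 ± 0.86.

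Enzymes that work on the matrix rose more often than they fell, with large single changes in both directions. Of 61 matrix enzymes and inhibitors 29 rose and 10 fell. Adam12, a membrane metalloprotease, was 3.83, 5.45 and 5.49 in warm beige, against 7.76, 8.10, 8.19 and 8.26 in cold beige. Pcolce, which enhances collagen processing, fell by 2.58 ± 0.25, and Adamtsl3 rose by 3.34 ± 0.23. Of 33 proteoglycans and matricellular proteins 18 rose and 3 fell, with the podocan gene Podn at 2.91 ± 0.18 and the glypican gene Gpc1 at -2.69 ± 0.22. Their number of increases was 11 without warm beige 2. In the cytoskeleton 29 of 53 genes rose and 13 fell (8 with totals without the 20 top genes), with the gelsolin gene Gsn at 2.63 ± 0.19, Tuba1a at 2.77 ± 0.46 and Tuba8 at -3.71 ± 0.49.

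Signals of the TGF-beta family were mostly higher after warming. Of 45 genes of BMP, activin and TGF-beta signalling 26 rose and 6 fell, with a median of 0.69, and 3 fell with totals without the 20 top genes. Inhbb, the beta B subunit of activin (uc007cir.1, chromosome 1, 119415463 to 119422248), was 8.53, 7.24 and 7.16 in warm beige, against 3.34, 1.72, 2.81 and 2.83 in cold beige. The group means differed 31.3-fold with no overlap, and the activin receptor gene Acvr2b rose by 2.56 ± 0.20. Bmp8b, a ligand made by activated brown fat, was -2.12, -6.03 and 0.01 in warm beige and 3.30, 4.47, 4.37 and 4.40 in cold beige. Id2, a target of BMP signals, fell by 1.86 ± 0.28.

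In the Wnt pathway 13 of 34 genes rose and 9 fell, which is 38.2% and 26.5%. Lgr6, a receptor for R-spondins (uc007csq.1, chromosome 1, 134983300 to 135105374), was -0.73, -6.16 and -5.41 in warm beige, against 7.48, 6.90, 6.94 and 6.54 in cold beige. With 1 CPM added before the logarithm its decrease was -6.73, against -11.06 ± 0.81 as deposited. The size of this change thus depends on values near the floor. The SE comes from 1 spread shared by all 5 groups. Lgr6 had an SD of 2.94 in warm beige and 0.39 in cold beige, so this SE understates the spread of warm beige. Apcdd1, a membrane inhibitor of Wnt, was 7.89, 7.81 and 7.30 in warm beige and 3.70, 2.88, 4.45 and 4.48 in cold beige. Dvl2, which carries the signal from the receptor, fell by 2.47 ± 0.10, and the transcription factor gene Tcf7l2 rose by 1.82 ± 0.14.

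Of 41 ligands and receptors of FGF and other families 19 rose and 12 fell. Fgf1 was 3.64, 3.15 and 2.47 in warm beige, against 6.23, 5.65, 6.06 and 6.02 in cold beige. Fgf2 was 4.42, 4.52 and 4.06 in warm beige, against 1.17, 0.88, 1.37 and 1.21 in cold beige. Both bind the same receptor family, and their changes of -2.90 ± 0.32 and 3.18 ± 0.49 had opposite signs. Among ligands of EGF receptors, Nrg4, secreted by brown fat, fell by 1.92 ± 0.25 and betacellulin, Btc, rose by 2.07 ± 0.26. Insulin and IGF genes counted 19 increases and 12 decreases of 50. Igf1 (2.11 ± 0.28) and its receptor gene Igf1r (1.95 ± 0.12) rose, and the growth kinase gene Mtor was 6.68, 6.31 and 6.44 in warm beige and 8.36, 8.49, 8.46 and 8.30 in cold beige.

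Secreted factors and genes of cAMP signalling moved both ways, at shares near the 36.0% of increases and 36.9% of decreases over all rows. Of the secreted factors 42.9% rose and 37.1% fell, and of the cAMP signalling genes 38.5% rose and 32.3% fell. Of 35 adipokines and other secreted factors 15 rose and 13 fell. Kng2, a kininogen, was -0.59, -1.20 and -5.55 in warm beige, against 6.62, 6.62, 6.69 and 6.59 in cold beige, and Fndc5, the precursor of irisin, was -5.69, -0.31 and -0.33 in warm beige, against 6.22, 6.76, 6.75 and 6.27 in cold beige. Of 38 angiogenic and hypoxia genes 17 rose and 9 fell, with the apelin gene Apln at -3.98 ± 0.55 and the stress gene Ndrg1 at 4.36 ± 0.49. Of 65 genes of adrenergic, natriuretic and cAMP signalling 25 rose and 21 fell. The adenylate cyclase gene Adcy5 rose by 2.71 ± 0.22, the soluble cyclase gene Adcy10 fell by 4.82 ± 0.32 and the phosphodiesterase gene Pde4a fell by 2.97 ± 0.12. Of 45 feedback regulators of kinases 18 fell and 16 rose, with Dusp15 at -1.73, -1.78 and 0.61 in warm beige and 5.38, 5.80, 5.87 and 5.58 in cold beige.

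Genes of chemokines and complement were mostly higher. Of 36 chemokines and cytokine receptors 19 rose and 7 fell, and Ackr3, which clears the chemokine CXCL12, was 2.05, 3.61 and 2.96 in warm beige, against 7.00, 6.68, 6.96 and 6.78 in cold beige. Of 29 complement and acute phase genes 16 rose and 5 fell. Clu, a secreted chaperone, was 7.62, 7.77 and 6.10 in warm beige, against 1.43, 0.85, 1.34 and 2.61 in cold beige. C1ra (3.93 ± 0.41) and C2 (3.86 ± 0.42), proteases of the classical pathway, rose, and orosomucoid, Orm1, fell by 2.94 ± 0.29. The macrophage markers summed to 180 to 208 CPM in warm beige and 63.8 to 110 CPM in cold beige, and their part in the complement values was not tested.

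Transcription factors shifted by family. Of 57 Kruppel-like, Sox, Fox, Sp and GATA factors 32 rose and 7 fell, with a median of 0.81. Klf6 was 7.25, 6.33 and 6.32 in warm beige and 4.20, 3.69, 3.82 and 4.64 in cold beige, while Sox6 fell by 1.40 ± 0.10. Of 36 immediate early genes, which respond within minutes to stimuli and to handling of tissue, 23 rose and 7 fell. Ier5 was 8.07, 8.21 and 5.52 in warm beige and 2.84, 1.70, 1.38 and 2.46 in cold beige, Gadd45b rose by 3.79 ± 0.35 and Dusp1 fell by 1.93 ± 0.34. Of 48 adipocyte transcription factors and coregulators 21 fell and 14 rose. Ppargc1b, a coactivator of mitochondrial genes, was 5.41, 4.14 and 4.81 in warm beige and 7.69, 7.78, 7.62 and 7.61 in cold beige. The corepressor gene Nrip1 (1.53 ± 0.17) and the retinoblastoma family gene Rbl1 (2.37 ± 0.23) rose.

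Of 52 homeobox, T-box and other positional regulators 20 rose and 7 fell, with Six5 at 1.43 ± 0.12 and Cux1 at -1.32 ± 0.09.

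The clock genes counted 9 increases and 8 decreases of 23 (39.1% and 34.8%), near the shares over all rows. Cry1 was 3.41, 2.30 and 2.65 in warm beige, against 5.11, 5.35, 5.44 and 5.03 in cold beige, Nfil3 changed by -2.34 ± 0.19 and Arntl by -2.01 ± 0.34. Bhlhe41, a repressor, rose by 1.45 ± 0.31. The labels used here give no hour of collection. Of 95 histone and DNA modifying enzymes 49 rose and 22 fell, and 14 fell with totals without the 20 top genes. The remodeller gene Smarca2 rose by 1.59 ± 0.12 and the methyltransferase genes Setd1b and Dnmt1 by 1.42 ± 0.16 and 1.22 ± 0.10, while Sirt3, the deacetylase of mitochondria, fell by 1.84 ± 0.20. In the cell cycle 13 of 37 genes rose and 12 fell (35.1% and 32.4%), near the shares over all rows. The inhibitors of cyclin-dependent kinases parted. Cdkn1a was 2.38, 3.00 and 3.10 in warm beige and 5.85, 6.10, 5.67 and 5.47 in cold beige, while Cdkn1b rose by 1.56 ± 0.11. Of 33 imprinted genes 18 rose and 6 fell, with Peg13 at 2.31 ± 0.14 and Gnas, the stimulatory G protein gene, at -2.05 ± 0.10 in the more abundant of its rows.

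Channels and solute carriers moved both ways, at shares not far from the 36.9% of decreases and 36.0% of increases over all rows. Of 63 ion channel genes 25 fell (39.7%) and 19 rose (30.2%). The calcium channel subunit gene Tmem37 fell by 5.27 ± 0.28 and the sodium channel gene Scn7a rose by 2.57 ± 0.16. Of 130 solute carriers 56 fell (43.1%) and 41 rose (31.5%). The fructose carrier gene Slc2a5 was -5.39, -1.53 and -3.06 in warm beige, against 5.58, 6.08, 5.61 and 4.68 in cold beige, and the glucose carrier gene Slc2a3 was 5.81, 5.09 and 5.94 in warm beige, against 1.92, 2.53, 2.24 and 2.80 in cold beige. These members of the same hexose carrier family changed in opposite directions. The bicarbonate carrier gene Slc4a4 fell by 2.68 ± 0.10. Of 25 genes linked to innervation 9 rose and 9 fell, which is 36.0% each way and near the shares over all rows. S100b, which thermogenic fat cells secrete to attract nerves in mice, was 4.52, 4.99 and 4.15 in warm beige and 8.29, 8.43, 8.27 and 8.33 in cold beige.

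Of 8995 rows outside all gene lists 6456 were called, and the naming rule took the 15 with the widest change in each direction. The membrane protein gene Emp1 (5.14 ± 0.41), the transcription factor gene Mycl (4.89 ± 0.43) and the annexin gene Anxa8 (4.50 ± 0.29) were among those that rose. Ahnak, a very large scaffold protein at the membrane (uc008goj.2, chromosome 19, 8989284 to 9076935), was 13.68, 13.38 and 12.86 in warm beige, against 9.45, 9.29, 9.34 and 9.02 in cold beige, a 16.4-fold increase. The organic anion carrier gene Slco2b1 (3.97 ± 0.27), the gamma-synuclein gene Sncg (3.56 ± 0.39) and Fam102b (3.78 ± 0.14) rose without overlap of the groups. The titin gene Ttn was 6.96, 7.06 and 4.45 in warm beige, against 0.29, 2.10, 1.80 and 2.79 in cold beige, so the 2 libraries with more skeletal muscle markers were also those with more Ttn. Warm beige 3 alone, set against the 4 cold libraries, left a Ttn difference of 2.71 log2 units, against 4.41 with all warm beige libraries. A single warm library has no spread of its own, so this remainder is not read as an increase.

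Among decreases outside the lists Perm1, a muscle regulator of mitochondrial genes (uc008wgm.1, chromosome 4, 156203262 to 156221307), was 2.01, -1.08 and 1.08 in warm beige, against 7.33, 7.49, 7.25 and 7.32 in cold beige. Gys2, the liver form of glycogen synthase, was -0.23, 0.71 and 0.21 in warm beige, against 6.44, 6.96, 7.20 and 6.84 in cold beige. St3gal5, which makes the ganglioside GM3, was 1.16, 1.64 and 1.84 in warm beige, against 7.11, 7.13, 6.98 and 7.11 in cold beige. No warm library of these genes reached a cold one. The nicotinic receptor subunit gene Chrna2, a marker of beige cells that respond to acetylcholine in mice, fell by 5.68 ± 0.43, the pacemaker channel gene Hcn2 by 4.49 ± 0.29 and the sorting receptor gene Sorl1 by 4.24 ± 0.21. In 3 rows outside the lists every warm beige library lay at or below the floor of -5. A530050N04Rik was one, at 5.20, 5.35, 5.09 and 4.85 in cold beige, and a row of the copine gene Cpne5 another, at 2.88, 2.68, 3.33 and 3.49. Within the insulin list the kinase gene Sgk2 was also at the floor in warm beige, and no fold change is given for these.

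The change in beige cells was set beside that in brown cells, and the difference of the 2 changes was tested in the same fit. This difference passed for 5477 rows (47.2%), of which 3765 were lower and 1712 higher in beige. Perm1 changed by -6.68 ± 0.40 in beige and by -0.71 ± 0.33 in brown (difference -5.97 ± 0.52, adjusted p = 4.85e-09). The change of Fabp3 was -6.13 ± 0.72 in beige and -0.44 ± 0.60 in brown, a difference of -5.69 ± 0.93 (adjusted p = 3.00e-05). The transferrin receptor gene Tfrc stood at -5.06 ± 0.30 in beige and -0.81 ± 0.25 in brown (difference -4.24 ± 0.39, adjusted p = 9.03e-09). In the cold Tfrc averaged 9.53 log2 CPM in beige and 8.41 in brown, and Perm1 7.35 in beige and 7.76 in brown. Lgr6 was 7.19 ± 0.60 log2 CPM in warm brown and 7.71 ± 0.50 in cold brown (SD, n = 5 each), so its wide decrease in beige had no counterpart that passed the test in brown (-0.52 ± 0.67, adjusted p = 0.496). The change of Fkbp5 was 3.10 ± 0.37 in beige and 0.32 ± 0.30 in brown. That of elastin, Eln, was 3.27 ± 0.43 in beige and 0.52 ± 0.35 in brown. Within batch 1, with 1 warm beige library, the differences of Fabp3 (-6.94) and Eln (2.355) kept their sign but were not called.

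**Figure D4:**
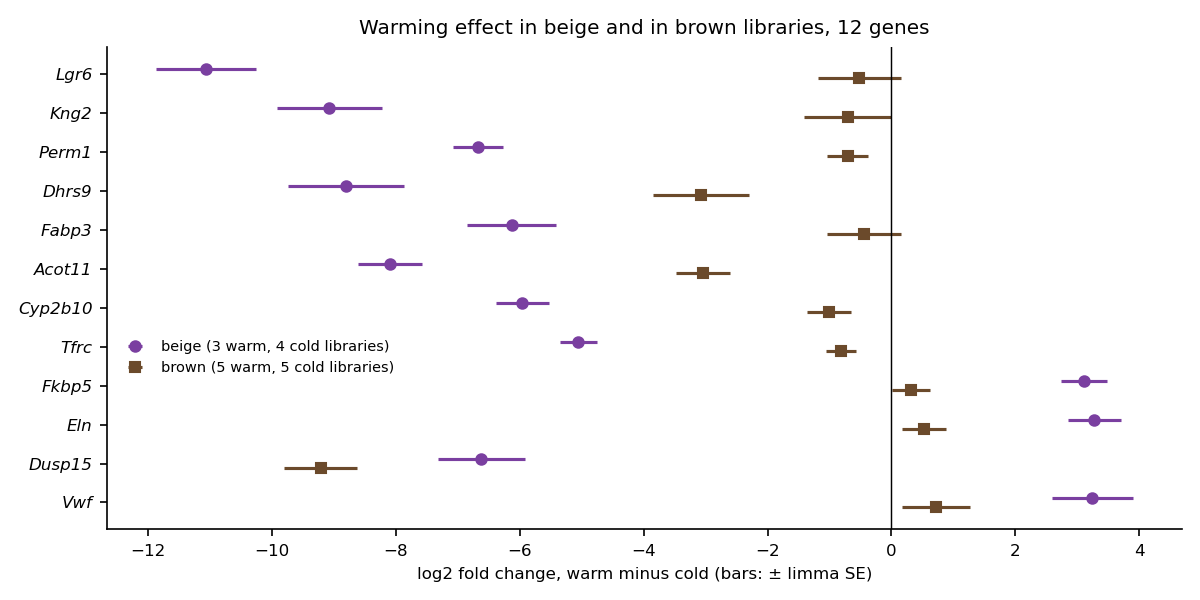
Log2 fold change, warm minus cold, of 12 named genes in beige libraries (circles, 3 warm and 4 cold) and brown libraries (squares, 5 warm and 5 cold), with limma's standard error as bars. Above are 8 genes with a negative difference and below 4 with a positive one, taken by size from the genes of the naming rule that passed the test of the difference, without Ucp1, genes under 5 log2 CPM in every group mean and genes at the floor in all libraries of a beige group. Lgr6, Kng2, Perm1 and Fabp3 lie between -11.06 and -6.13 in beige and between -0.71 and -0.44 in brown. The bars rest on a spread shared by all groups, which can be too small for warm beige.

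The end level was set beside that of warm white cells, a comparison that shares the warm beige libraries with the ones above and that called 4572 rows (39.4%). Inhbb was 7.64 ± 0.77 log2 CPM in warm beige and 8.10 ± 0.16 in warm white (SD, n = 3 and 5; difference -0.46 ± 0.32, adjusted p = 0.264), and without warm beige 1 the difference passed (-0.90, adjusted p = 0.0292). Ahnak was 13.31 ± 0.41 in warm beige and 12.95 ± 0.35 in warm white (0.35 ± 0.20, adjusted p = 0.178), and passed without warm beige 3 (0.58, adjusted p = 0.0404). Perm1 was 0.67 ± 1.59 in warm beige and 0.15 ± 0.47 in warm white (0.52 ± 0.39, adjusted p = 0.296), and it passed without warm beige 2 (1.40, adjusted p = 8.5e-05). Acot11 and Fabp3 were higher in warm beige than in warm white, though within batch 1 Fabp3 was not called (3.77, adjusted p = 0.132). Acot11 was 2.18 ± 1.38 in warm beige and -1.59 ± 1.20 in warm white (3.77 ± 0.50, adjusted p = 3.57e-06). Fabp3 was 2.32 ± 0.84 in warm beige and -2.36 ± 2.11 in warm white (4.68 ± 0.69, adjusted p = 1.36e-05). The warm white means of both genes were negative on the log2 CPM scale, so the sizes of these differences rest on low values. Col1a1 was 9.97 ± 0.61 in warm beige and 8.67 ± 0.35 in warm white (1.30 ± 0.35, adjusted p = 0.00556), a difference that was not called within batch 2 (adjusted p = 0.149).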

How the data were processed

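The authors deposited log2 CPM values for 11603 rows in 22 mRNA libraries, with no counts, so the depth of each library is unknown. The antilogs sum to 0.859 to 1.10 times the nominal total, above 1 in 9 of 22 libraries, and the means of the possible batches differ by at most 0.0025 log2 units in any row once groups are fitted, so the values look adjusted for batch before deposit, and a batch term in the fit can change little; no source used here states this step. HISAT2, Picard, featureCounts, edgeR and the build mm10 are named, per the submitters' processing notes; versions, strand use and the counting annotation are not given in the sources used here, so genes that overlap or share reads are uncertain. The 36 ChIP samples were not analysed here. Differences were tested by limma-trend (limma 3.58.1 in R 4.3.3) across the 22 libraries, which were modelled as 5 group means and left 17 residual degrees of freedom. Each row had 1 spread shared by all groups. SE and p-values can thus be too small where warm beige varied more, as for Lgr6, Kng2 and Dhrs9 (SD 2.94, 2.705 and 2.75). The moderated two-sided test was adjusted by Benjamini-Hochberg over all rows, with a threshold of 0.05 and a second rule that also asked for 2-fold. Fold changes are on the deposited log2 scale, whose prior count is not stated and understates the change of low genes. Values at or below -5 were called the floor. A symbol with several rows (117 rows in all) was counted once in a list, by its most abundant row. Every row passed the filter of 1 CPM in 3 libraries.

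The members and the 72 gene lists were chosen with earlier results of these data known. In each list the rule named the called members of widest change with at least 4 log2 CPM in the higher group and no overlap, 3 in the commoner direction and 2 in the other. Outside the lists it named 15 in each direction, the rows at the floor in 1 group, the 10 most abundant rows of 2-fold change and the label genes; not all are printed, and some genes are not reported here. Psmb10, Col12a1, Col10a1 and Arntl, and the genes compared with brown and white cells, were chosen after their values were seen. Promoters came from RefSeq (GRCm38.p6, the assembly of mm10), with 8620 of 11544 symbols matched; positions of genes come from the same assembly. Scripts were tested on simulated data. Alternatives changed the pseudocount, filter, scaling, libraries, batch and replicate terms.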

Additional observations from a re-analysis of the deposited data

Results flagged for a closer look

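Among 230 named genes, 10 (4.35%) had 1 cold beige library apart from the other 3 by Dixon's test, where chance gives about 1 in 20. The lowest library stood apart for Far1 (cold beige 2 at 4.06 log2 CPM, the nearest at 4.40), Fdps (cold beige 4 at 5.33, nearest 5.78), P4hb (cold beige 2 at 6.20, nearest 6.37), Npnt (cold beige 3 at 5.14, nearest 5.30) and St3gal5 (cold beige 3 at 6.98, nearest 7.11). Cold beige 1 was the lowest for Bmp8b (3.30, nearest 4.37), Orm1 (4.94, nearest 5.77) and Slc26a6 (4.38, nearest 4.58). The highest library stood apart for Eef2k (cold beige 3 at 4.40, nearest 4.19) and Gnas (cold beige 2 at 11.55, nearest 11.44).

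The change with warming differed between beige and brown cells for 12 named genes in limma's test of the difference, beige minus brown on the log2 scale. It was lower in beige for Lgr6 (-10.54, adjusted p = 3.36e-08), Kng2 (-8.37, adjusted p = 1.92e-06), Perm1 (-5.97, adjusted p = 4.85e-09) and Dhrs9 (-5.73, adjusted p = 0.000479). The same held for Fabp3 (-5.69, adjusted p = 3.00e-05), Acot11 (-5.05, adjusted p = 2.25e-06), Cyp2b10 (-4.95, adjusted p = 2.25e-07) and Tfrc (-4.24, adjusted p = 9.03e-09). It was higher in beige for Fkbp5 (2.79, adjusted p = 4.93e-05), Eln (2.75, adjusted p = 0.000282), Dusp15 (2.59, adjusted p = 0.0235) and Vwf (2.53, adjusted p = 0.0183). Dusp15 averaged -4.00 log2 CPM in warm brown, close to the floor, and 5.21 in cold brown, so its larger decrease in brown rests on values near the floor. Its difference was not called without warm beige 3 (1.81, adjusted p = 0.109), within batch 1 (adjusted p = 0.125) or 2 (adjusted p = 0.101), under quantile normalization (adjusted p = 0.062) or with library weights (adjusted p = 0.0703). Vwf, an endothelial marker, lost its difference without warm beige 2 (2.23, adjusted p = 0.0579). Within batch 1, which holds 1 warm beige library, the differences of Dhrs9 (-5.04), Fabp3 (-6.94), Eln (2.355) and Vwf (2.055) kept their sign but were not called.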

How the results depend on the processing

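Under 22 alternatives, the numbers of rows called, risen and fallen and of 2-fold calls stayed within 1.5 times the values given above, except as follows. Adding 5 CPM before the logarithm left 2405 rows with a 2-fold change, against 3888, and within batch 1, where 1 warm library was assumed to vary like the other groups, 5255 rows were called and 2194 rose. Leaving out 1 beige library at a time gave 7941 to 8245 calls, 3876 to 4046 increases, 4065 to 4209 decreases and 3747 to 3939 calls of 2-fold. The replicate block by title number called 8352 rows and by library number 8332; same-numbered libraries correlated at 0.243, -0.093 and 0.236, and at -0.1, -0.095 and 0.049, so the numbers were not taken to pair the samples. The filter of none gave the same calls because every row passed. Counts of list members were less stable than these counts of rows. Of 144 list counts, 80 moved in some alternative by more than the factor used above for rows, 45 of them from at least 10 members. Many of these moves came within batch 1 or without warm beige 1 and 2, where 1 warm library is left. Increases among imprinted genes numbered 11 within batch 2, against 18 with all libraries. Without warm beige 1 and 2, an alternative chosen after seeing the data because of their muscle markers, 7122 rows were called.

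Of 230 named genes 27 lost or gained a call in some alternative and 0 reversed; among single libraries left out, only Pparg lost its call. Adipoq, Fabp4, Tk2, Tomm34, Slc25a30, Slc25a38, Bcat2, Npnt, Tuba1a, Bmp8b and Bhlhe41 lost theirs only within batch 1 or without warm beige 1 and 2. Increases among endothelial markers numbered 14, but 0 within batch 1 and 4 without those 2 libraries; macrophage markers gave 5 increases, and 2 or 3 without cold beige 1, warm beige 2 or warm beige 3. Skeletal muscle markers gave 11 increases, and 7 without warm beige 2. Their sum in warm beige 3, 73.2 CPM, lay within the 40.8 to 92.3 CPM of cold beige. The higher sum thus rests on warm beige 1 and 2, at 350 and 320 CPM. Totals without the 20 top genes, which move the median of all rows to 0.25, changed the sign of the medians of the cholesterol efflux, cytochrome P450, kinase feedback, adipocyte transcription factor and solute carrier lists. The difference of Dusp15 between beige and brown reversed to -0.24 (adjusted p = 0.351) with 5 CPM added; the cause was not tested. Depth is unknown, so no limit from counting can be given.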
